A study of Mus musculus with 18 samples.

Results

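The NRF2 antioxidant genes are 10 genes chosen by name, not by a cut-off on a measured value, but with earlier results of these data known. Nfe2l2 and Keap1 encode the transcription factor NRF2 and its repressor. Gclc, Gclm and Gsr belong to glutathione synthesis and recycling, and Txnrd1, Prdx1 and Srxn1 to the thioredoxin and peroxiredoxin system. Hmox1 and Nqo1 encode enzymes that break down haem and reduce quinones. All 10 had reads in the deposited tables, which hold 17208 genes, and 8 of the 10 were among the 8331 genes with enough reads in both assays to be tested. Nqo1 and Gclc were not tested, and their reads are described separately. MIN6, a mouse insulinoma line used as a model of the pancreatic beta cell, received DMSO for 18 h (control), or 200 µM cyclopiazonic acid for 1 h (CPA1) or 18 h (CPA18). Cyclopiazonic acid (CPA) blocks the SERCA pump, which moves calcium into the endoplasmic reticulum (ER). In 3 independent experiments, poly(A) RNA (mRNA-seq) and ribosome-protected fragments (Ribo-seq) of every treatment were sequenced, 18 libraries in all. No group received DMSO for 1 h, so CPA1 was compared with cells kept in DMSO for longer, and the medium of every group contained β-mercaptoethanol, a thiol reductant.

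NRF2 is the main activator of antioxidant and detoxifying genes in mammalian cells. In unstressed cells KEAP1, an adaptor of the CUL3 ubiquitin ligase, binds newly made NRF2 and sends it to the proteasome. Oxidants and electrophiles modify cysteines of KEAP1, NRF2 escapes degradation, and with a small MAF protein it binds antioxidant response elements (AREs) near its target genes. Because NRF2 is controlled mainly as a protein, the level of Nfe2l2 mRNA does not report NRF2 activity, and neither assay used here measures NRF2 protein. Beta cells are known for low levels of several antioxidant enzymes, and ER stress is linked to this pathway through the kinase PERK and through the oxidative folding of proteins.

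The promoter windows of the genes were searched for the ARE core, because it is the site through which NRF2 acts. RefSeq windows (build GRCm38.p6) of 250 bases before to 50 bases after the start site were at hand for 7 of the 10 genes, with 3 windows for Txnrd1, and Hmox1, Gclc and Gsr were not in that table. The letters searched were TGACNNNGC, on both strands, and 5 of the 7 genes held 1 match. These genes had 9 windows, of which 5 held the motif. In all, 12.4% of 32851 promoter windows held the motif. Each match is printed with 10 bases on either side, read on the strand on which the motif runs forward, with the motif in capitals.

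Nfe2l2: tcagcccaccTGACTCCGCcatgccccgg
Txnrd1: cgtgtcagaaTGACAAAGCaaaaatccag
Gclm: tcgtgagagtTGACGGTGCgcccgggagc
Srxn1: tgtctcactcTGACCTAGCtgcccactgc
Prdx1: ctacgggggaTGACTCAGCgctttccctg

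The Nfe2l2 match lies on the minus strand at chr2:75704885-75704913, and the Srxn1 match, also on the minus strand, at chr2:152105542-152105570. The matches of Gclm (chr3:122245413-122245441), Prdx1 (chr4:116685456-116685484) and Txnrd1 (chr10:82859104-82859132) lie on the minus strand as well. Counted from the start site, where the base before it is -1, the motif spans -240 to -232 in Nfe2l2, -92 to -84 in 1 of the 3 windows of Txnrd1, -134 to -126 in Gclm and -133 to -125 in Prdx1. In Srxn1 it spans 29 to 37, past the start site and within the transcript. Variants of the ARE core with letters other than TGACNNNGC were not searched. The Prdx1 match also contains TGACTCA, the site of AP-1 factors. That site was looked for only in the printed matches and is not particular to Prdx1. Before its start site, the Srxn1 window holds it on the other strand, within gcctgagtcaccac and within ccctgagtcagcggc. Neither stretch matches the letters searched. No window of the 7 genes held TGATGNAA, searched as the composite element of C/EBP and ATF factors, which 3.97% of all windows held. Matches in these windows are descriptions of the letters, and enhancers farther away were not searched.

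Total counts ran from 520960 to 4755030 reads in the mRNA-seq libraries and from 168129 to 1083297 in the Ribo-seq libraries, so several of the genes rest on few reads. The 14 beta cell markers listed for the check were all present, at 96100 to 266000 RPM (reads scaled to a common library total) in sum in the control mRNA-seq libraries, alpha cell markers summed to 1180 to 3250 RPM and acinar and duct markers to 202 to 500 RPM there, and delta and PP cell markers summed to at most 7.3 RPM and markers of fibroblasts, endothelium and blood to at most 7.9 RPM. Alpha cell markers summed to 184 to 498 RPM in the CPA18 mRNA-seq libraries, and their part in the results was not tested. At CPA18, 13 of the 14 beta cell markers were called lower in both assays, and all 10 ER stress reporters were called higher in both. The insulin genes Ins1 and Ins2 made up 6.6% to 20.9% of the reads in control mRNA-seq libraries and 1.44% to 5.06% at CPA18. Scaled to library totals, the median gene was 0.37 higher on the log2 scale at CPA18 than in control in mRNA-seq and 0.38 higher in Ribo-seq, and changes are also given relative to it. The split of all calls moved with the scaling, and was 2161 higher and 695 lower genes in mRNA-seq at CPA18 with this scaling and 1146 higher and 1570 lower with TMM factors, and 1779 higher and 523 lower in Ribo-seq against 839 and 1013 with TMM factors. The descriptions of the control libraries of experiment 2 name the opposite assay from their titles. Placed by title, the Ribo-seq to mRNA-seq difference of this pair across 8331 genes correlated with the mean of the other pairs at r = 0.82, where the other 8 pairs gave 0.49 to 0.85.

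After 18 h of CPA, 3 of the 8 tested genes rose in both mRNA-seq and Ribo-seq: Hmox1, Srxn1 and Keap1. Hmox1 rose 3.51-fold in mRNA and 7.8-fold in footprints, Srxn1 2.08-fold and 3.23-fold, and Keap1 1.75-fold and 2.11-fold. None fell in either assay, and the other 5 genes (Nfe2l2, Txnrd1, Gclm, Prdx1 and Gsr) did not pass the test. Among all 8331 genes, 25.9% were called higher and 8.34% lower in mRNA-seq, and 21.4% higher and 6.28% lower in Ribo-seq, in the same comparison. The median log2 change of the 8 genes was 0.50 in mRNA-seq, and for footprints it was 0.33, beside 0.37 and 0.38 for all genes.

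After 1 h of CPA, none of the 8 genes was called in mRNA-seq, where 0.36% of all genes were called higher, and 1 (Srxn1) rose in Ribo-seq, where 3.0% were. From CPA1 to CPA18, 4 genes rose in mRNA-seq (Hmox1, Keap1, Srxn1 and Prdx1) against 31.8% of all genes, and 3 in Ribo-seq (Hmox1, Keap1 and Srxn1) against 15.3%. Libraries of CPA18 lay wholly above those of control for 3 of the 10 genes in Ribo-seq (Hmox1, Srxn1 and Keap1; 27.5% of all tested genes) and for none in mRNA-seq (15.1%). They lay wholly above those of CPA1 for 4 genes in Ribo-seq (the same 3 and Txnrd1; 22.1%) and for Hmox1 in mRNA-seq (15.9%). Between CPA1 and control, Srxn1 footprints alone were wholly higher (10.2%).

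**Figure D1:**
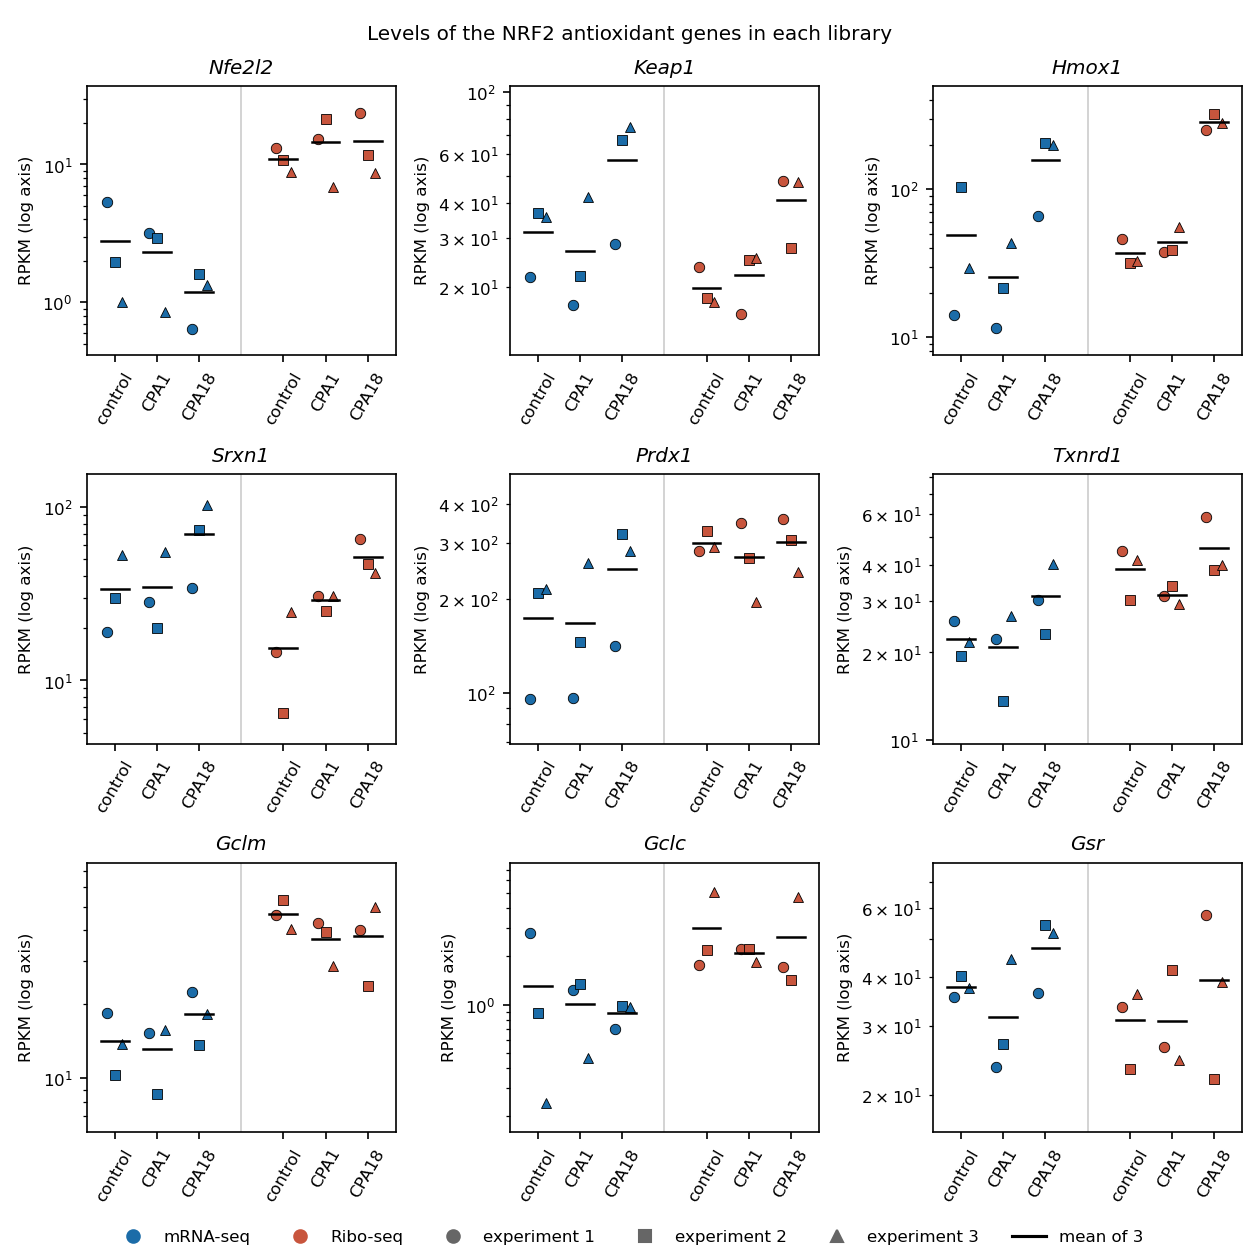
RPKM (reads per kilobase of transcript, scaled to library total; log axis) of 9 NRF2 antioxidant genes in each library, with mRNA-seq in blue on the left of each panel and Ribo-seq in red on the right; symbols mark the experiment and bars the mean of 3 libraries. Nqo1, with 11 reads in all libraries together, is left out. Hmox1 footprints at CPA18 (251 to 325 RPKM) lie far above those in control (31.6 to 46.2 RPKM), while Prdx1, Gclm and Gsr footprints overlap between treatments.

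Levels were compared between genes as RPKM, which is scaled to the whole transcript, so that footprints, which cover the coding part, appear lower in genes with long untranslated parts. In control footprints Prdx1 was the most abundant of the 10, at 301 ± 24 RPKM (SD, n = 3). Gclm (46.6 ± 6.21), Txnrd1 (38.7 ± 7.58), Hmox1 (36.9 ± 8.12) and Gsr (31 ± 6.93) followed, and then Keap1 (19.8 ± 3.26), Srxn1 (15.3 ± 9.19) and Nfe2l2 (10.9 ± 2.15), each with libraries that overlapped those of its neighbour in this order. Gclc (3.02 ± 1.81) and Nqo1 (0.493 ± 0.429) were the lowest, and their libraries overlapped neither each other nor those of Nfe2l2. At CPA18 Hmox1 footprints reached 286 ± 37.2 RPKM, beside 302 ± 57.6 RPKM for Prdx1, and the libraries of both genes overlapped. The most abundant gene in mRNA-seq was also Prdx1, at 173 ± 66.5 RPKM in control, and Nfe2l2, Gclc and Nqo1 were the lowest 3.

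Hmox1 (gene at chr8:75093618-75100593) encodes haem oxygenase 1, which opens the haem ring to biliverdin, carbon monoxide and iron. Hmox1 mRNA stood at 14.1, 103 and 29.5 RPKM in the control libraries of experiments 1, 2 and 3, at 11.6, 21.4 and 43.3 RPKM in CPA1, and at 66, 206 and 199 RPKM in CPA18. The CPA18 library was the highest within each experiment, but the control library of experiment 2 lay above the CPA18 library of experiment 1, so these groups overlapped, whereas CPA18 lay wholly above CPA1. Hmox1 footprints stood at 46.2, 31.6 and 32.8 RPKM in control, 37.7, 39 and 55.9 RPKM in CPA1, and 251, 325 and 282 RPKM in CPA18. All 3 CPA18 libraries lay above all 6 others. The log2 change from control to CPA18 was 1.81 ± 0.32 (SE) in mRNA-seq with an adjusted p of 1.16e-05, and 2.96 ± 0.22 in Ribo-seq with an adjusted p of 1.5e-26. Relative to the median gene these changes were 1.45 and 2.58. From CPA1 to CPA18 the log2 change was 2.57 ± 0.32 in mRNA-seq (adjusted p = 5.17e-09) and 2.69 ± 0.23 in Ribo-seq (adjusted p = 2.7e-21).

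The control mRNA-seq library of experiment 2 set part of the mRNA value of Hmox1. It held 276 Hmox1 reads, and the log2 change from control to CPA18 within experiments was 2.17, 1 and 2.75 in experiments 1, 2 and 3. Without this library the fitted change was 2.74, against 1.81 with it. The same library was high in Blvra, which encodes a biliverdin reductase: Blvra stood at 511 RPKM there, beside 11 and 30.4 RPKM in the other control libraries. At CPA18, Blvra mRNA was again highest in experiment 2, at 82.2 RPKM beside 3.47 and 21.9 RPKM. Hmox1 footprints in the control of experiment 2, at 31.6 RPKM, were the lowest of the control libraries. Why this mRNA-seq library was high in both genes was not tested. The 1 h comparison of Hmox1 mRNA also turned on single experiments. Its log2 change from control to CPA1 was -0.75 ± 0.34 and was not called (adjusted p = 0.647), while the changes within experiments were -0.32, -2.25 and 0.55. Without experiment 3 the fitted change was -1.52 with an adjusted p of 0.0422.

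Srxn1 (chr2:152105524-152111376) encodes sulfiredoxin, which repairs overoxidised peroxiredoxins. Srxn1 mRNA stood at 19, 29.7 and 52.6 RPKM in control, 28.5, 20.1 and 54.7 RPKM in CPA1, and 34.2, 73.1 and 103 RPKM in CPA18. The CPA18 library was the highest of its experiment in each case, although the groups overlapped, the CPA18 library of experiment 1 lying below the control and CPA1 libraries of experiment 3. Srxn1 footprints stood at 14.6, 6.47 and 24.8 RPKM in control, 30.7, 25.2 and 30.8 RPKM in CPA1, and 65.2, 47 and 41.5 RPKM in CPA18. The 3 treatments did not overlap, with control lowest and CPA18 highest. From control to CPA18 the log2 change was 1.06 ± 0.27 in mRNA-seq (adjusted p = 0.00212) and 1.69 ± 0.28 in Ribo-seq (adjusted p = 1.95e-07). From CPA1 to CPA18 it was 1.005 ± 0.27 in mRNA-seq (adjusted p = 0.00298) and 0.75 ± 0.28 in Ribo-seq (adjusted p = 0.0403).

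Srxn1 was the one gene of the group that was called after 1 h. Its footprints rose by 0.94 ± 0.28 on the log2 scale (1.92-fold, adjusted p = 0.0199), with 1.06, 1.95 and 0.32 in experiments 1, 2 and 3, with the control library lowest in each. The mRNA change at 1 h was 0.05 ± 0.28 and was not called (adjusted p = 0.993). The Ribo-seq call rests on 17 to 76 reads per control library. Without the control Ribo-seq library of experiment 2, which held 17 Srxn1 reads, the change was 0.60 with an adjusted p of 0.415, and with DESeq2 the adjusted p was 0.0672.

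Keap1 (chr9:21229730-21239332) encodes the repressor that targets NRF2 for degradation. Keap1 mRNA stood at 21.7, 36.8 and 35.6 RPKM in control, 17.3, 21.8 and 41.9 RPKM in CPA1, and 28.4, 67.2 and 74.7 RPKM in CPA18. Each CPA18 library exceeded the control library of its experiment, and the groups overlapped. Keap1 footprints stood at 23.6, 18.2 and 17.7 RPKM in control, 16, 24.9 and 25.3 RPKM in CPA1, and 48.1, 27.6 and 47.5 RPKM in CPA18, with all CPA18 libraries above the other 6. The log2 change from control to CPA18 was 0.81 ± 0.27 in mRNA-seq (adjusted p = 0.0147) and 1.08 ± 0.25 in Ribo-seq (adjusted p = 0.000369). From CPA1 to CPA18 it was 1.04 ± 0.26 in mRNA-seq (adjusted p = 0.00159) and 0.94 ± 0.27 in Ribo-seq (adjusted p = 0.00459). Relative to the median gene, Keap1 mRNA was 0.44 higher at CPA18 than in control. This smaller difference was not called with TMM factors (adjusted p = 0.0638) or DESeq2 (adjusted p = 0.103), and the Ribo-seq call was kept with TMM factors (adjusted p = 0.0236) and lost with DESeq2 (adjusted p = 0.118). Without the CPA18 mRNA-seq library of experiment 2 the mRNA change of Keap1 was 0.63 (adjusted p = 0.16) and that of Srxn1 0.75 (adjusted p = 0.0904), and without experiment 3 they were 0.66 (adjusted p = 0.273) and 1.10 (adjusted p = 0.0538). The Keap1 mRNA call was also lost without the CPA18 library of experiment 3 or the control library of experiment 2 or 3, with adjusted p of 0.0863, 0.0522 and 0.188. The Ribo-seq call of Keap1 was lost without experiment 3 (adjusted p = 0.0685). The reads of Keap1 were spread over 4 annotated transcripts with 768 to 889 reads each, and were summed. Whether a read shared by these transcripts was counted more than once is not known, so the summed counts and level of Keap1 are uncertain.

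Nfe2l2 (chr2:75675513-75704663), which encodes NRF2 itself, was the member of the tested group with the fewest reads, 2 to 19 per mRNA-seq library and 6 to 27 per Ribo-seq library. Nfe2l2 mRNA stood at 5.38, 1.95 and 0.998 RPKM in control, 3.17, 2.91 and 0.846 RPKM in CPA1, and 0.645, 1.6 and 1.34 RPKM in CPA18. Its footprints stood at 13.2, 10.8 and 8.87 RPKM in control, 15.4, 21.4 and 6.81 RPKM in CPA1, and 23.8, 11.8 and 8.68 RPKM in CPA18. Both sets overlapped fully between treatments. The log2 change from control to CPA18 was -0.74 ± 0.60 in mRNA-seq (adjusted p = 0.346) and 0.34 ± 0.40 in Ribo-seq (adjusted p = 0.559), and differences of this size were not detectable at this depth. The mRNA value lay 1.10 below that of the median gene, the lowest of the 8 tested genes.

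The genes of the thioredoxin and peroxiredoxin system other than Srxn1 were not called against control. Prdx1 (chr4:116685599-116700000) encodes an abundant cytosolic peroxidase of hydrogen peroxide. Its mRNA stood at 96.2, 208 and 215 RPKM in control, 96.4, 146 and 259 RPKM in CPA1, and 141, 320 and 283 RPKM in CPA18, with the groups overlapping. Its footprints stood at 283, 328 and 291 RPKM in control, 347, 268 and 195 RPKM in CPA1, and 357, 306 and 242 RPKM in CPA18. The CPA18 library lay above the CPA1 library in every experiment, while control was lowest in experiment 1 and highest in experiments 2 and 3, and the groups overlapped. From control to CPA18 the log2 change of Prdx1 was 0.53 ± 0.24 in mRNA-seq (adjusted p = 0.083) and -0.03 ± 0.18 in Ribo-seq (adjusted p = 0.931). From CPA1 to CPA18 Prdx1 mRNA rose by 0.59 ± 0.24 with an adjusted p of 0.0489, next to 0.49 for the median gene. The adjusted p was 0.776 with TMM factors and above 0.05 when any single experiment was left out. Reads of Prdx1 may be shared with processed copies elsewhere in the genome, so its level is uncertain.

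Txnrd1 (chr10:82833951-82897724) encodes the cytosolic thioredoxin reductase, a selenoprotein. Its mRNA stood at 25.7, 19.4 and 21.8 RPKM in control, 22.2, 13.6 and 26.8 RPKM in CPA1, and 30.3, 23.2 and 40.2 RPKM in CPA18. Its footprints stood at 44.6, 30.2 and 41.5 RPKM in control, 31.2, 33.9 and 29.3 RPKM in CPA1, and 58.6, 38.4 and 40 RPKM in CPA18. In mRNA-seq the CPA18 library was the highest of each experiment, and in both assays the control and CPA18 groups overlapped. The log2 change from control to CPA18 was 0.46 ± 0.27 in mRNA-seq (adjusted p = 0.186) and 0.21 ± 0.23 in Ribo-seq (adjusted p = 0.532). From CPA1 to CPA18 it was 0.50 ± 0.25 in Ribo-seq, where all CPA18 libraries lay above all CPA1 libraries, but the adjusted p was 0.142. The reads of Txnrd1 were spread over 4 transcripts with 507 to 580 reads each, and its summed counts and level are uncertain in the same way as those of Keap1.

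**Figure D2:**
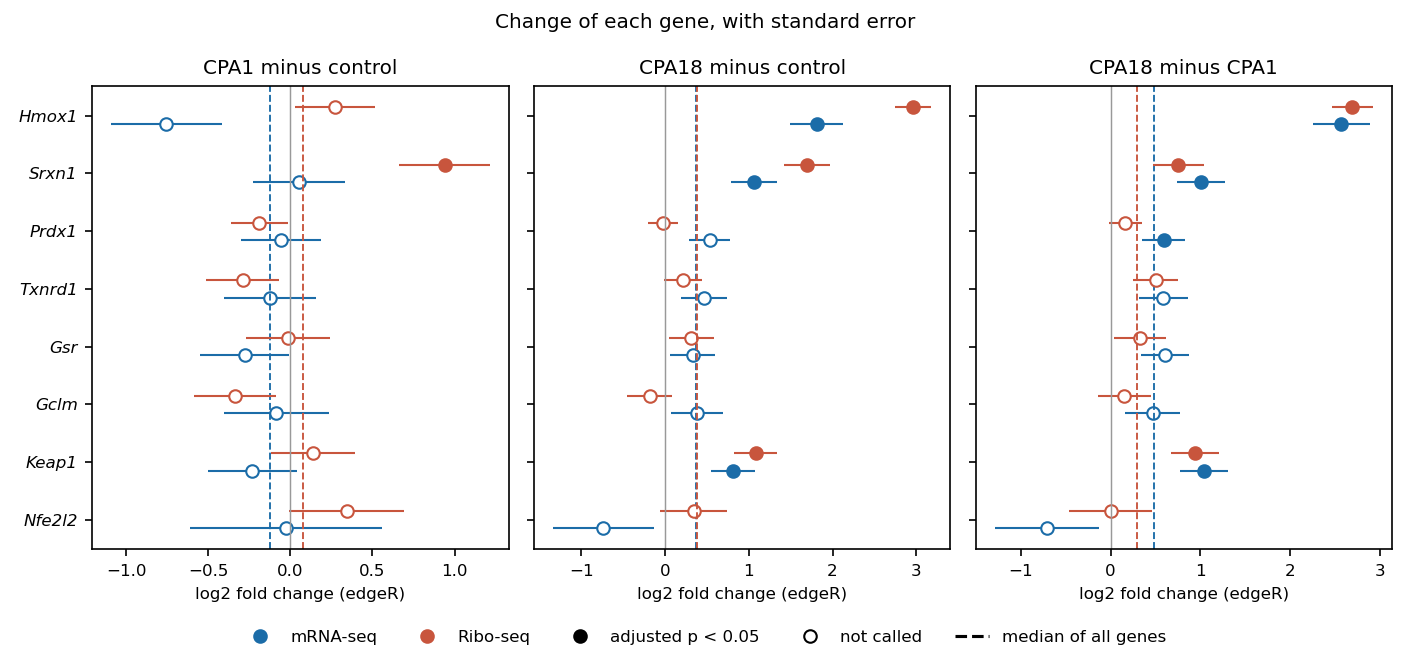
Log2 fold change of each tested gene from the edgeR fits for the 3 comparisons, with its standard error, in mRNA-seq (blue) and Ribo-seq (red); filled points have an adjusted p under 0.05 over all genes, and dashed lines mark the median of all genes in each assay. At CPA18 against control, Hmox1, Srxn1 and Keap1 are filled in both assays, and the points of Prdx1, Txnrd1, Gsr and Gclm in mRNA-seq lie near the dashed line at 0.37.

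None of the tested genes of glutathione synthesis and recycling was called. Gclm (chr3:122245487-122267215) encodes the modifier subunit of glutamate-cysteine ligase, the enzyme that limits glutathione synthesis. Its mRNA stood at 18.5, 10.3 and 13.8 RPKM in control, 15.3, 8.61 and 15.8 RPKM in CPA1, and 22.5, 13.7 and 18.3 RPKM in CPA18. Its footprints stood at 46.4, 53 and 40.5 RPKM in control, 42.8, 39.3 and 28.7 RPKM in CPA1, and 40.2, 23.8 and 49.7 RPKM in CPA18. The groups overlapped in both assays. The log2 change from control to CPA18 was 0.38 ± 0.31 in mRNA-seq (adjusted p = 0.343), the same as the median gene within 0.02, and -0.19 ± 0.27 in Ribo-seq (adjusted p = 0.655), which is 0.56 below the median gene. With an offset for GC content and length the Ribo-seq value of Gclm was -0.68 with an adjusted p of 0.0353, so the call on its footprints depended on that setting. They rest on 10 to 57 reads per CPA18 library.

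Gsr (chr8:33653238-33698162) encodes glutathione reductase, which returns oxidised glutathione to its reduced form with NADPH. Gsr mRNA stood at 35.6, 40.2 and 37.6 RPKM in control, 23.6, 27 and 44.5 RPKM in CPA1, and 36.5, 54.3 and 51.9 RPKM in CPA18. Its footprints stood at 33.5, 23.2 and 36.3 RPKM in control, 26.5, 41.6 and 24.5 RPKM in CPA1, and 57.5, 21.9 and 38.9 RPKM in CPA18. The control libraries were close to each other in mRNA-seq, with the CPA18 libraries of experiments 2 and 3 above all of them and that of experiment 1 among them, and the footprints overlapped throughout. The log2 change from control to CPA18 was 0.33 ± 0.27 in mRNA-seq (adjusted p = 0.352) and 0.31 ± 0.27 in Ribo-seq (adjusted p = 0.405), within 0.07 of the median gene in both.

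Gclc and Nqo1 were below the read minimum. Gclc (chr9:77754535-77794489), the catalytic partner of Gclm, had 54 reads in all 9 mRNA-seq libraries and 52 in all 9 Ribo-seq libraries, and its mean of 3.67 RPM in mRNA-seq lay under the minimum of 5, whereas Nfe2l2, at 5.23 RPM, lay just above. Gclc mRNA stood at 2.79, 0.883 and 0.241 RPKM in control and 0.702, 0.978 and 0.969 RPKM in CPA18. With no minimum, Gclc mRNA differed between control and CPA18 by 0.01 ± 0.75 on the log2 scale and its footprints by -0.09 ± 0.63, and neither was called. Nqo1 (chr8:107388225-107403205), the quinone reductase often used to read out NRF2 activity, had 8 reads in mRNA-seq and 3 in Ribo-seq. It was at 0 in all 3 control mRNA-seq libraries, where a count of 0 allows 1.25 to 5.76 RPM. At CPA18 it had 1, 6 and 0 reads in mRNA-seq and none in Ribo-seq, where a count of 0 allows 5.42 to 17.8 RPM. A change in Nqo1 was not detectable at this depth.

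Ribosome occupancy, the ratio of Ribo-seq to mRNA-seq, was compared within each gene. None of the 8 genes was called in any of the 3 comparisons by edgeR, nor by DESeq2, which gave some of them no adjusted p. Of all genes, edgeR called 0.072% for CPA1 against control, 0.3% for CPA18 against control and 0.06% for CPA18 against CPA1. At an unadjusted p under 0.05 there were 2, 1 and 0 of the 8 genes. The largest value was that of Hmox1, whose ratio of RPKM stood at 3.28, 0.308 and 1.11 in control, 3.26, 1.82 and 1.29 in CPA1, and 3.81, 1.58 and 1.42 in CPA18. The experiments differed more than the treatments did, and experiment 2 was low in control only. The log2 change in Hmox1 occupancy from control to CPA18 was 1.16 ± 0.41 with an adjusted p of 0.294. It was 0.21 without the control mRNA-seq library of experiment 2 (adjusted p = 0.974) and was 1.74 without that of experiment 3 (adjusted p = 0.000884).

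Srxn1 occupancy stood at 0.771, 0.218 and 0.472 in control, 1.08, 1.25 and 0.563 in CPA1, and 1.91, 0.643 and 0.401 in CPA18. It was higher in CPA1 than in control in each experiment, and at CPA18 in experiments 1 and 2 only. The log2 change was 0.91 ± 0.41 for CPA1 (adjusted p = 0.687) and 0.68 ± 0.41 for CPA18 (adjusted p = 0.672). Prdx1 occupancy stood at 2.94, 1.58 and 1.36 in control and 2.53, 0.954 and 0.854 in CPA18, lower in every experiment. Its log2 change was -0.56 ± 0.31 (adjusted p = 0.625). Nfe2l2 occupancy was 2.45, 5.53 and 8.89 in control and 37, 7.39 and 6.49 in CPA18, and the value of 37 rests on 2 mRNA-seq and 10 Ribo-seq reads. Its log2 change was 1.07 ± 0.72 (adjusted p = 0.704).

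**Figure D3:**
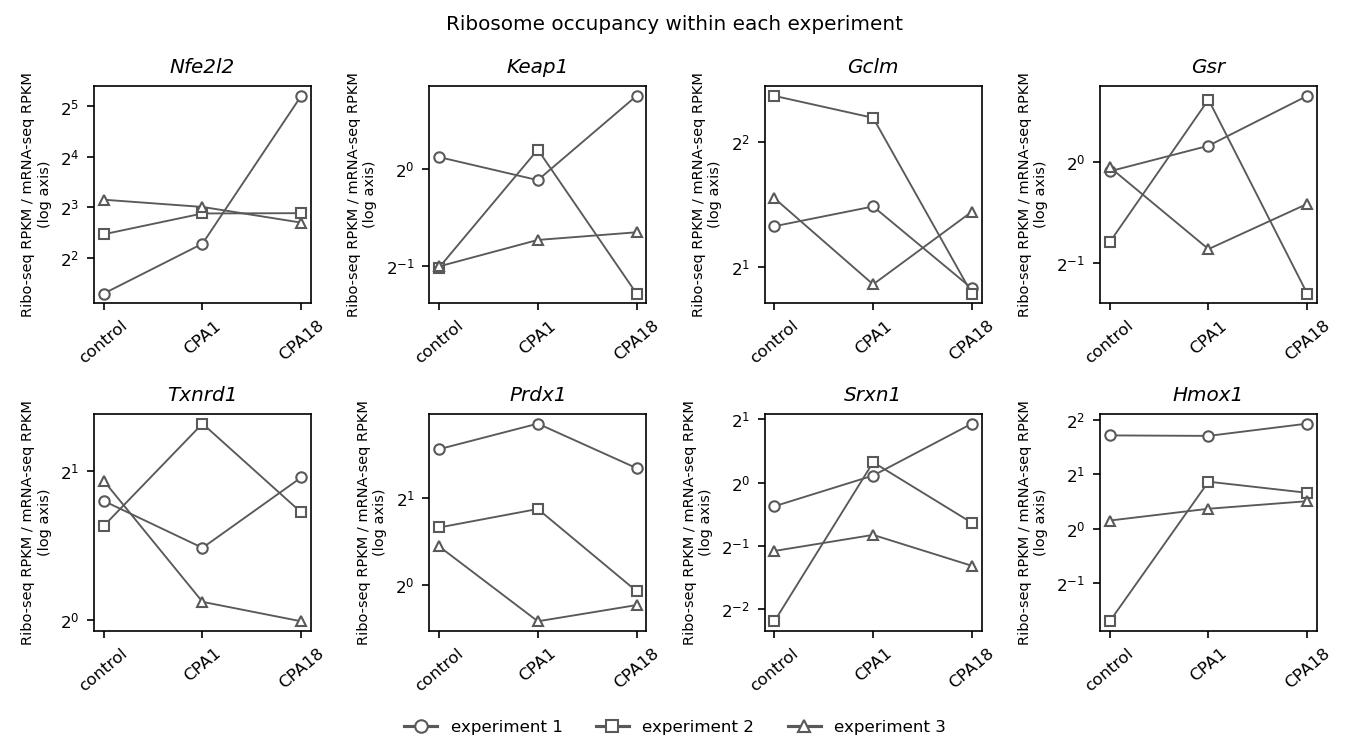
Ribosome occupancy of the 8 tested genes, as Ribo-seq RPKM divided by mRNA-seq RPKM on a log axis, in control, CPA1 and CPA18; lines join the libraries of 1 experiment. Hmox1 in experiment 2 starts at 0.308 in control and stands at 1.58 at CPA18, while experiments 1 and 3 change little.

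The calls were also set against the scaling of the libraries. In the 24 fits run on CPA18 against control (as reported and under 23 alternatives), Hmox1 lay above the median gene of the same fit by 1 to 2.35 in mRNA-seq and by 2.36 to 2.89 in Ribo-seq on the log2 scale. Srxn1 lay above it by 0.47 to 0.86 in mRNA-seq and by 0.96 to 2.04 in Ribo-seq, and Keap1 by 0.37 to 0.59 and 0.39 to 0.91. Gclm, Prdx1 and Txnrd1 footprints lay below the median gene in all 24, those of Txnrd1 by only -0.277 to -0.025. In mRNA-seq Prdx1 and Txnrd1 lay above the median gene in all 24, and Nfe2l2 below it in all 24. The fits share libraries, so their number is not a count of independent results. Without the replicate number as a block, no mRNA-seq call on these genes remained for CPA18 against control: the adjusted p was 0.185 for Hmox1, 0.292 for Srxn1 and 0.353 for Keap1. Most calls on other genes were lost too. Of all 8331 genes, 144 were called higher and 51 lower in that mRNA-seq fit, against 2161 and 695 with the block. The Ribo-seq calls of that comparison held without the block, at 1.66e-11 for Hmox1, 0.00024 for Srxn1 and 0.0032 for Keap1 as adjusted p. The called genes had a higher GC content than most others of the group, 53.2% for Hmox1, 53.3% for Srxn1 and 59.7% for Keap1 against 42.9% to 50.6% for the other 7. With an offset for GC content and length, and the block, all 3 were still called in both assays, with adjusted p of 0.0109, 0.0452 and 0.0121 in mRNA-seq for Hmox1, Srxn1 and Keap1.

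**Figure D4:**
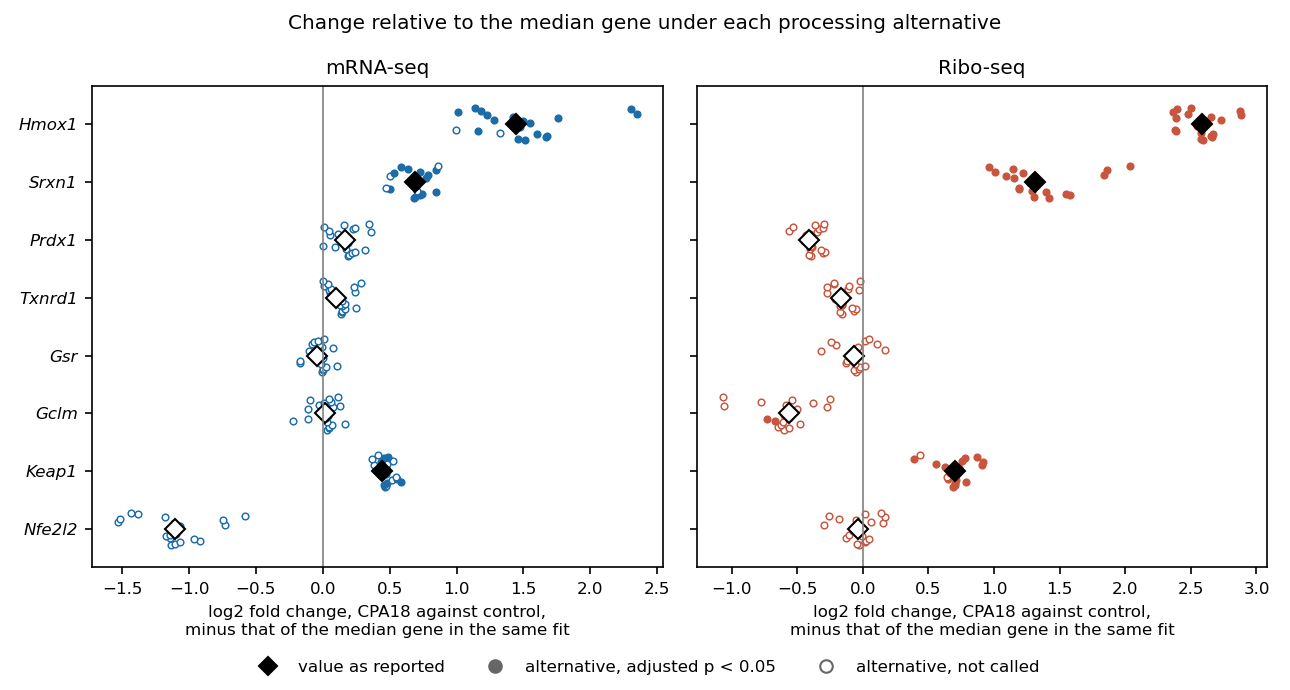
Log2 fold change from control to CPA18 minus that of the median gene in the same fit, for each tested gene in mRNA-seq (left) and Ribo-seq (right); diamonds are the values as reported, small points the 23 alternatives, and filled symbols have an adjusted p under 0.05. Hmox1, Srxn1 and Keap1 lie to the right of 0 under all alternatives in both assays, and Prdx1, Txnrd1 and Gclm lie to the left of 0 in Ribo-seq.

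Genes around the pathway were taken from 6 lists with 116 genes besides the 10, of which 89 were tested. At CPA18 against control, 30 of the 89 rose and 7 fell in mRNA-seq, and 32 rose and 2 fell in Ribo-seq. Of all 8331 genes, 25.9% rose and 8.34% fell in mRNA-seq, and 21.4% and 6.28% in Ribo-seq. Brackets repeat these shares for each list. The median log2 change of the 89 was 0.41 for mRNA and 0.48 for footprints, beside 0.37 and 0.38 for all genes. After 1 h, 1 of the 89 rose in mRNA-seq, and 5 rose and 2 fell in Ribo-seq. Of all 8331 genes, 30 rose and 5 fell in mRNA-seq then, and 250 rose and 190 fell in Ribo-seq. Without the replicate block, 144 of all 8331 genes were called higher and 51 lower in mRNA-seq at CPA18 against control. Of the mRNA-seq calls named below by size of change, only those of Nfe2l1, Chac1, Slc3a2, Gstt1 and Sesn2 held in that fit. The Ribo-seq calls so named held without the block except that of Gstp1 (adjusted p = 0.0872).

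Among partners and regulators of NRF2, 7 of 17 tested genes rose (25.9% of all genes) and 2 fell (8.34%) in mRNA-seq, and 6 rose in Ribo-seq (21.4%). Sqstm1, which encodes the autophagy receptor p62 that binds KEAP1, stood at 297, 320 and 291 RPKM in control footprints and at 1250, 1570 and 1450 RPKM in CPA18 footprints. It rose by 2.22 ± 0.16 on the log2 scale in Ribo-seq (adjusted p = 9.55e-28) and by 2.14 ± 0.26 in mRNA-seq (adjusted p = 3.19e-09). Nfe2l1, the relative of Nfe2l2 that is held in the ER membrane, stood at 34.7, 40.2 and 43.8 RPKM in control and 145, 221 and 255 RPKM in CPA18 in mRNA-seq and rose by 2.36 ± 0.26 (adjusted p = 1.38e-10). Footprints of Mafk, a small MAF partner, rose by 2.50 ± 0.85 (adjusted p = 0.0122) from a low level of 0.654 to 0.862 RPKM. Of the other small MAF genes on the list, Mafg mRNA fell by 1.53 (adjusted p = 0.00436) and Maff mRNA rose by 1.35 (adjusted p = 0.00123). Footprints of Mafg and Maff were not called (adjusted p = 0.135 and 0.0579). Ep300, a coactivator, fell by 1.38 in mRNA-seq (adjusted p = 0.0414) and was at most 2.41 RPKM.

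Among genes of glutathione synthesis and use, 3 of 12 rose (25.9% of all genes) and 1 fell (8.34%) in mRNA-seq, and 4 rose in Ribo-seq (21.4%). The risers that led the list do not make glutathione. Chac1, which degrades it, rose by 4.22 ± 0.31 in mRNA-seq (adjusted p = 1.09e-16) and by 3.63 ± 0.23 in Ribo-seq (adjusted p = 2.9e-32), and Slc3a2, a subunit shared by amino acid transporters including the cystine carrier, by 2.68 ± 0.28 and 2.33 ± 0.17 (adjusted p = 2.73e-11 and 8.21e-27). Slc7a11, the other subunit of the cystine carrier, was not called in mRNA-seq (0.41, adjusted p = 0.307) or Ribo-seq (0.38, adjusted p = 0.359). Glrx, a glutaredoxin, fell by 1.15 in mRNA-seq (adjusted p = 0.00205). Of 10 tested glutathione transferases, 4 rose (25.9% of all genes) and 2 fell (8.34%) in mRNA-seq, and 2 rose (21.4%) and 1 fell (6.28%) in Ribo-seq. Gsto1 rose by 2.84 ± 0.44 in mRNA-seq and 2.55 ± 0.68 in Ribo-seq (adjusted p = 1.17e-06 and 0.00143). It started from a low level, 0, 4.59 and 7.32 RPKM in control mRNA-seq and 3.07, 0 and 5.42 RPKM in control footprints, so its fold changes are imprecise. Gstt1 fell by 2.48 and 2.54 (adjusted p = 0.000104 and 0.00421). Gstm4 rose and Mgst3 fell in mRNA-seq, by 1.29 ± 0.41 and by 1.11, and Gstp1 footprints rose by 0.49 ± 0.18. These families have close relatives that can share reads, and the values of Gstm4 and Gstp1 lost their calls with TMM factors (adjusted p = 0.0896 and 0.708).

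The list of thioredoxin, peroxiredoxin and superoxide enzymes had 8 of 17 genes higher (25.9% of all genes in mRNA-seq and 21.4% in Ribo-seq). It had 1 lower in each assay (8.34% and 6.28%). Sesn2, a stress-induced sestrin, rose by 2.38 ± 0.27 in mRNA-seq and 2.35 ± 0.21 in Ribo-seq (adjusted p = 4.1e-10 and 6.02e-20), and its relative Sesn3 fell by 1.03 and 1.25 (adjusted p = 0.0119 and 0.000805). Txnip, which binds and inhibits thioredoxin, rose by 2.09 ± 0.36 in mRNA-seq (adjusted p = 7.99e-06, and 0.209 without the replicate block). Txn2, the mitochondrial thioredoxin, rose by 1.79 ± 0.26 in Ribo-seq (adjusted p = 4.13e-09). In the list of NADPH supply, 3 of 13 genes rose in mRNA-seq (25.9% of all genes) and 6 in Ribo-seq (21.4%), and none fell. They included Mthfd2 (1.93 ± 0.29) and Tkt (1.66 ± 0.25) in mRNA-seq, enzymes of mitochondrial folate metabolism and the pentose phosphate pathway. In Ribo-seq they included Nadk (1.78 ± 0.43) and Me1 (1.22 ± 0.33), enzymes of NADP synthesis and malate oxidation. Nadk mRNA was not called (0.11, adjusted p = 0.83).

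Around Hmox1, in the list of haem, iron and quinone detoxification, 5 of 20 genes rose in mRNA-seq (25.9% of all genes) and 1 fell (8.34%). In Ribo-seq 6 rose (21.4%). Footprints of Ftl1, the ferritin light chain that stores the iron haem oxygenase releases, stood at 221, 148 and 268 RPKM in control and 743, 669 and 681 RPKM in CPA18, without overlap. Ftl1 footprints rose by 1.74 ± 0.18 on the log2 scale (adjusted p = 7.05e-16), while its mRNA was not called (-0.15, adjusted p = 0.66). Near-identical ferritin copies can share the reads of Ftl1, which limits both values. Abcc4, an efflux pump of conjugated compounds, rose by 2.23 ± 0.36 in mRNA-seq and 2.57 ± 0.35 in Ribo-seq (adjusted p = 2.23e-06 and 1.81e-10). Hmox2, the constitutive haem oxygenase, rose by 1.22 ± 0.30 in mRNA-seq (adjusted p = 0.00113). Blvra fell by 1.91 in mRNA-seq (adjusted p = 0.000295), a value that includes the high control library of experiment 2 named for Hmox1.

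**Figure D5:**
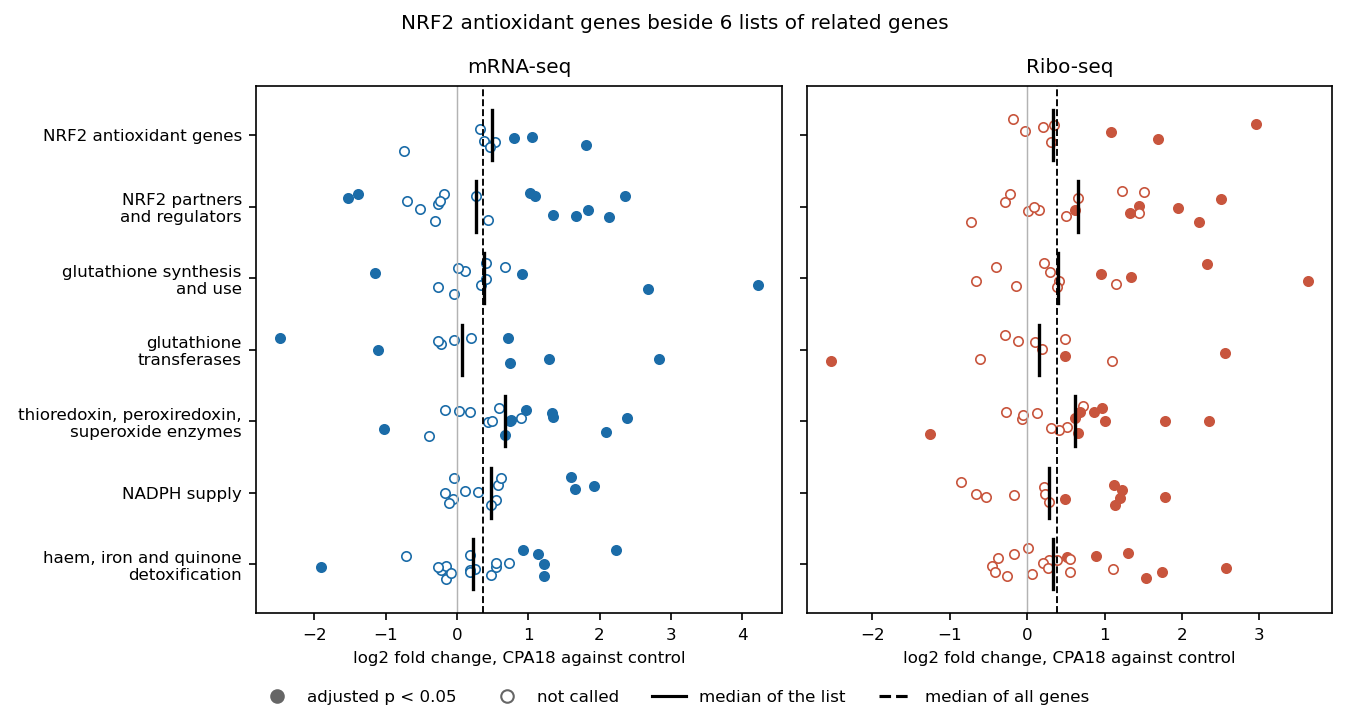
Log2 fold change from control to CPA18 of the 8 tested NRF2 antioxidant genes (top row) and of 6 lists of related genes in mRNA-seq (left) and Ribo-seq (right); each point is a gene, filled where the adjusted p is under 0.05, black bars are list medians and the dashed line is the median of all genes. The medians of the NRF2 antioxidant genes lie at 0.50 and 0.33, on either side of the dashed line.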

How the data were processed

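The authors kept reads of 15 to 40 bases that passed a quality filter, matched them by Bowtie2 with a GRCm38 set of mouse transcripts, and deposited for each library the count of reads per RefSeq transcript and the RPKM made from it. Here the 30741 listed transcripts were joined to genes through RefSeq (30227 with their version, 478 without, 36 unmatched and kept as their own), and counts and RPKM were summed per gene. How reads shared by several transcripts were placed is not given in the sources used here. Libraries were grouped by the titles. The NRF2 genes, the lists of related genes and the tests were chosen with earlier results of these data known.

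The 8331 genes with a mean of at least 5 RPM in each assay were tested with edgeR's quasi-likelihood test (4.0.16, R 4.3.3), on counts with the total count as library size and the replicate number as a block; ribosome occupancy was the interaction of assay and treatment over 18 libraries. The Benjamini-Hochberg adjustment covered every tested gene, with 0.05 as the threshold. Changes within experiments used log2 RPM with 0.5 reads added. Alternatives were no block, TMM factors, totals without the insulin genes or Lars2, no minimum, transcripts read in all 18 libraries, DESeq2 (1.42.0), limma (3.58.1) on log2(RPKM + 0.5) or log2(RPKM + 1), leaving out each experiment or library, and, added after the data were seen, an offset for GC content and length from splines with 4 degrees of freedom. The code was tested on simulated data. The labels tie replicate numbers to batches, and same-numbered libraries deviated together: the mean r of deviations from the treatment means was 0.54 in mRNA-seq (0.12 to 0.72 over 9 pairs) and 0.12 in Ribo-seq (0.08 to 0.19). Named from the lists were the 2 largest increases and 2 largest decreases per list and assay at CPA18 against control, among genes with an adjusted p under 0.05 and 1 sign in all 3 experiments. Mafg and Maff were named beside Mafk, and Slc7a11 beside Slc3a2, outside this rule. Limits from a count of 0 take 3 reads of the library total and cover counting error only. Promoters came from RefSeq tables; figures were drawn with Python 3.11.15 and pandas 2.3.3.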

Additional observations from a re-analysis of the deposited data

Results flagged for a closer look

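The change at 18 h differed from the change at 1 h for 4 genes, by the test of CPA18 against CPA1, in which the shared control cancels. The same test called 31.8% of all genes higher in mRNA-seq and 15.3% in Ribo-seq. In mRNA-seq the difference on the log2 scale was 2.57 for Hmox1, 1.04 for Keap1, 1.005 for Srxn1 and 0.59 for Prdx1, where the median gene moved by 0.49. In Ribo-seq it was 2.69 for Hmox1, 0.94 for Keap1 and 0.75 for Srxn1, where the median gene moved by 0.30. With TMM factors, which remove that shift, Hmox1 was called in both assays and Keap1 in mRNA-seq only. Groups of 3 libraries are too small for a test of single outlying samples, and none was made.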

How the results depend on the processing

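No called change of an NRF2 antioxidant gene turned its sign under any alternative run. Of the counts of called genes, that of mRNA-seq at CPA18 against control (3) was 0 without the replicate block, and 0 with the GC and length offset without the block. Of all genes, the former fit called 144 higher and 51 lower, and the latter 547 and 609. The count of mRNA-seq for CPA18 against CPA1 (4) was 0 without the block and 2 with TMM factors, DESeq2 or either offset. Without the block, 133 of all genes were called higher and 49 lower in that comparison. The count of Ribo-seq for CPA18 against CPA1 (3) was 1 with TMM factors, DESeq2 or limma with either pseudocount, Hmox1 in each. That of Ribo-seq for CPA1 against control (1, Srxn1) was 0 without the block and with DESeq2, limma or either offset. Leaving out an experiment or a library gave 1 to 4 called genes in mRNA-seq and 2 to 3 in Ribo-seq for CPA18 against control, 2 to 5 and 1 to 3 for CPA18 against CPA1, and 0 to 1 in both for CPA1 against control. For occupancy it gave 0 to 1 for both comparisons with control (Hmox1 without the control mRNA-seq library of experiment 3) and 0 for CPA18 against CPA1. The lowest mRNA-seq counts for CPA18 came without its library of experiment 2, or without experiment 3 (against control) or 2 (against CPA1), and the lowest Ribo-seq counts against CPA1 without experiment 1 or its CPA1 library. The Srxn1 call at 1 h was lost without the control or CPA1 Ribo-seq library of experiment 1 or 2, and Hmox1 mRNA was called at 1 h without the control or CPA1 library of experiment 3. Where a fit leaves out a library, the others of its group are taken to vary like the rest. The causes of these changes were not tested. The Ribo-seq count for CPA18 against control stayed within 2 to 4 in the other alternatives, and leaving out the block also took the Ribo-seq count for CPA18 against CPA1 from 3 to 2 and moved no other count. Depth limits Nfe2l2, Gclc and Nqo1 most.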
